A study of Danio rerio with 21 samples.

Results

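The genes described here are 5 of the genes in the count table for kinases that phosphorylate glucose: gck (glucokinase, LL0000011213), hk1 (LL0000012148) and hk2 (LL0000012149), the hexokinases 1 and 2, hkdc1 (hexokinase domain containing 1, LL0000012150) and adpgk2 (an ADP-dependent glucokinase gene, LL0000000403). The related gene adpgk is not among the 5 and is given beside them. They were taken by gene symbol, each symbol matched a single row, and they are 5 of the 36351 genes in the table. They were chosen by their levels at 5 days post fertilization (dpf), where several of them separate the offspring of knockout mothers from those of heterozygous mothers, so the 5 dpf values below are a description and carry no test. The 10 dpf comparison was not used for that choice and is tested. Earlier results of these data were known when the 5 kinases and the gene lists below, with adpgk among them, were chosen. The adjusted p-values given for them are therefore not independent of those results.

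Phosphorylation to glucose 6-phosphate traps glucose in the cell and opens glycolysis, glycogen synthesis and the pentose phosphate pathway. Hexokinases 1 and 2 bind glucose tightly and are inhibited by their product. Glucokinase binds it loosely, is not inhibited that way and, in the mammalian liver and pancreatic beta cell, works as a sensor of blood glucose, held in check in the liver by the regulatory protein Gckr. The ADP-dependent enzymes use ADP in place of ATP. Glucose 6-phosphatase, encoded by the g6pc genes, runs the opposite reaction and lets the liver release glucose.

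The series holds poly(A) RNA-seq of 21 pools of 4 to 6 whole zebrafish larvae of the EK strain, 3 pools in each of 7 groups, from a line with frameshift mutations in the first and the second exon of pomgnt2, a glycosyltransferase gene needed to glycosylate dystroglycan. The line was propagated from several founders. At 5 dpf, females homozygous for the mutation gave maternal-zygotic knockouts (MZKO, -/-) and their heterozygous siblings (MHet, +/-), and heterozygous females gave zygotic knockouts (ZKO, -/-), heterozygotes (Het, +/-) and wild types (WT, +/+). At 10 dpf, MZKO and MHet pools were sequenced. The 5 dpf pools are labelled batch 1 and the 10 dpf pools batch 2, so age and batch cannot be told apart, and MHet and Het share a genotype but not a mother. Offspring of knockout and of heterozygous females came from separate crosses. The mother's genotype therefore cannot be told apart from the cross and its clutches, and differences with the mother below are also differences between crosses.

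Between 16959935 and 22439739 reads per pool were assigned to genes, so that 3 reads correspond to 0.133 to 0.196 CPM (reads per 1000000 assigned reads, scaled for composition over all 21 pools). The pomgnt2 transcript itself was present at 13.1 to 19.9 CPM in all 21 pools, so its level does not check the genotype labels. The summed level of 14 hepatocyte markers varied between the WT pools, with 6682 CPM in pool 1, 5201 CPM in pool 2 and 3215 CPM in pool 3. Nothing in the labels says that the pools of a group came from separate clutches, so the p-values measure the spread between these pools. In whole larvae, fewer cells of a type and less RNA per cell cannot be told apart. Levels are compared within a gene only, since CPM are not scaled for gene length.

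At 5 dpf the level of gck went with the mother. It was 10.0, 20.1 and 27.2 CPM in the MZKO pools and 31.3, 16.7 and 19.9 CPM in the MHet pools. It was 4.78, 2.35 and 2.41 CPM in the ZKO pools, 3.57, 3.24 and 4.82 CPM in the Het pools and 7.49, 3.79 and 2.18 CPM in the WT pools. All 6 pools with a knockout mother lay above all 9 pools with a heterozygous mother, and within each of the 2 sets the genotypes overlapped. Averaged over MHet and MZKO, gck was 5.95-fold the average of Het and ZKO (log2 2.57, SE 0.36). Its pools scattered widely, with a standard deviation of 8.61 CPM around a mean of 19.1 CPM in MZKO and of 7.70 around 22.6 CPM in MHet (n = 3 each). The change with the larva's own genotype was small beside this spread, at -0.25 on the log2 scale (SE 0.44) for MZKO against MHet and -0.51 (SE 0.55) for ZKO against WT. Single pools moved both values across or away from 0: the first was 0.07 without MHet pool 1 and 0.06 without MZKO pool 1, and the second was 0.07 without WT pool 1 and -0.92 without ZKO pool 1.

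**Figure D1:**
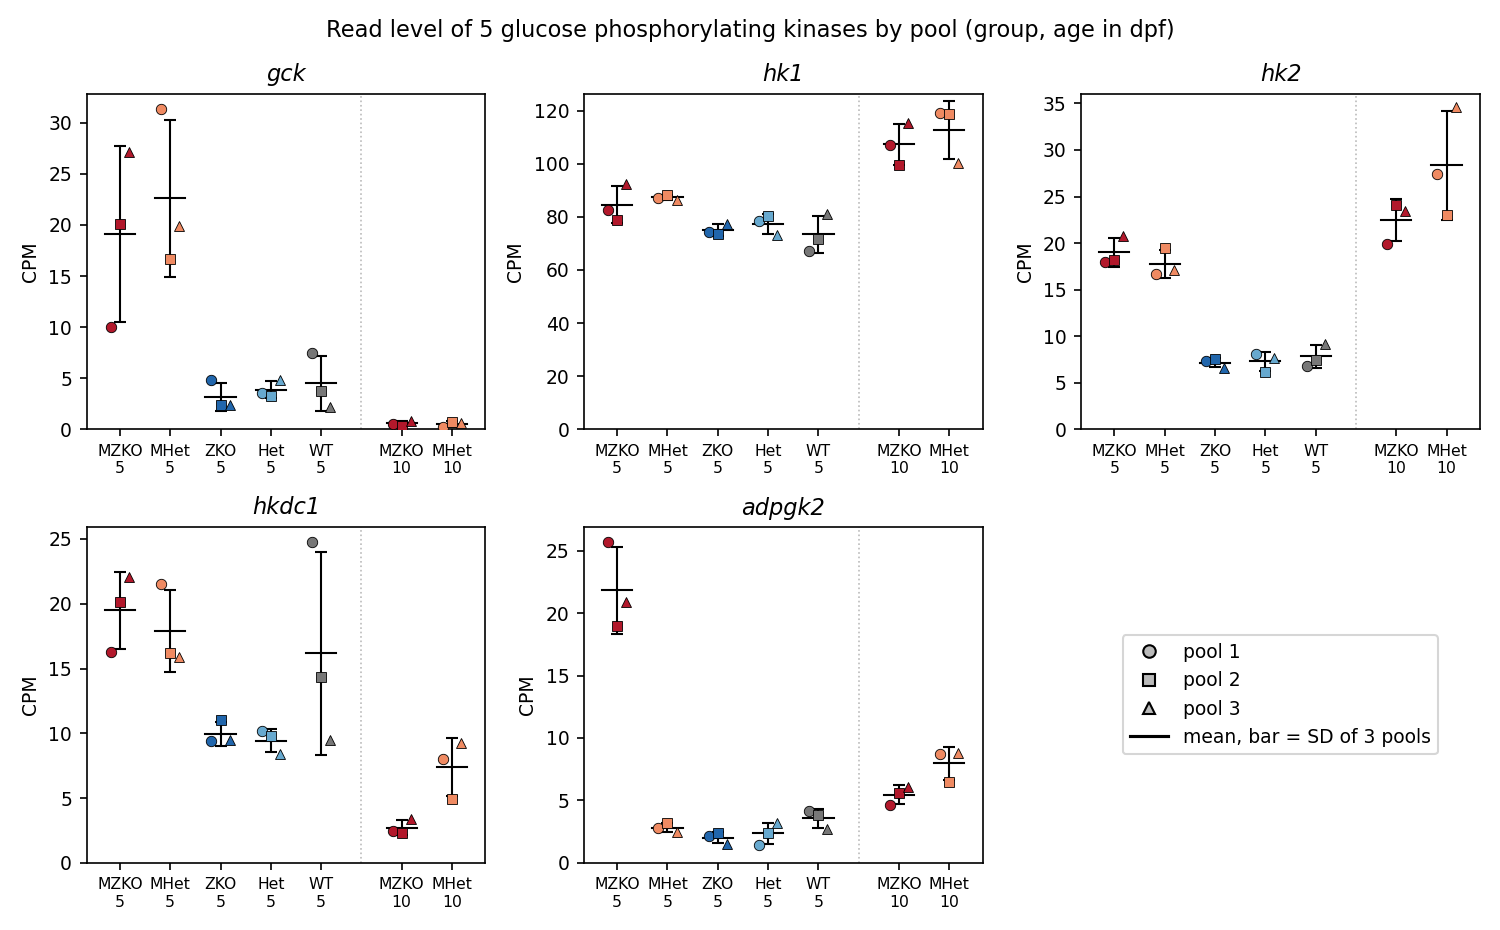
Read level of the 5 kinase genes in each pool, in CPM on linear axes from 0, by group with the age in dpf under the name. Points are single pools (3 a group), the line is their mean and the bar the SD. gck and hk2 split by mother at 5 dpf, adpgk2 is at 18.9 to 25.7 CPM in the 5 dpf MZKO pools only and at 8.76 CPM or less in the 18 others, and gck is under 1 CPM in all 6 pools at 10 dpf.

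The gck gene overlaps the genes tbc1d10aa and myl7 in the RefSeq annotation of GRCz12tu, an assembly other than the one used for counting. The strand setting of the counting is not given in the sources used here, so reads of these genes may not be fully separated. At 5 dpf the cardiac myosin light chain gene myl7 averaged 8.46 ± 1.81 CPM in MZKO, 8.52 ± 1.50 in MHet, 7.92 ± 0.76 in ZKO, 13.3 ± 2.86 in Het and 17.3 ± 3.88 CPM in WT (SD, n = 3 each). The gene tbc1d10aa averaged 27.0 ± 2.06 CPM in MZKO, 21.9 ± 1.61 in MHet, 18.8 ± 2.15 in ZKO, 20.9 ± 4.33 in Het and 24.5 ± 2.38 CPM in WT (SD, n = 3 each). The part of reads from these genes in the level of gck was not tested.

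The hexokinase gene hk2, which in mammals is typical of muscle and other insulin-responsive tissue, had the same split by mother at 5 dpf with far less scatter. Its level was 18.0, 18.2 and 20.8 CPM in the MZKO pools and 16.7, 19.5 and 17.1 CPM in the MHet pools. The ZKO pools had 7.28, 7.59 and 6.62 CPM, the Het pools 8.07, 6.16 and 7.68 CPM and the WT pools 6.84, 7.42 and 9.19 CPM. The lowest pool with a knockout mother was thus at 16.7 CPM, against 9.19 CPM in the highest pool with a heterozygous mother. The average of MHet and MZKO was 2.54-fold that of Het and ZKO (log2 1.34, SE 0.10). The larva's own genotype moved hk2 by 0.10 (SE 0.13) for MZKO against MHet and by -0.12 (SE 0.15) for ZKO against WT. A long non-coding RNA gene overlaps hk2 in the RefSeq annotation of GRCz12tu. The part of its reads in the level of hk2 was not tested.

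The widely expressed hk1 differed least between the 5 dpf groups. It had 82.7, 78.8 and 92.5 CPM in MZKO and 87.2, 88.4 and 86.5 CPM in MHet, against 74.3, 73.4 and 77.5 CPM in ZKO, 78.5, 80.4 and 73.1 CPM in Het and 67.2, 71.8 and 81.1 CPM in WT. The means of MHet and MZKO were above those of the other 3 groups, but single pools overlapped, and the fitted difference with the mother was 1.13-fold (log2 0.18, SE 0.06).

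The gene hkdc1 encodes a hexokinase-like protein that phosphorylates glucose weakly in mammals. In the RefSeq annotation of GRCz12tu a long non-coding RNA gene overlaps both hkdc1 and hk1. At 5 dpf hkdc1 had 16.2, 20.1 and 22.1 CPM in MZKO and 21.5, 16.2 and 15.9 CPM in MHet, against 9.39, 11.0 and 9.48 CPM in ZKO and 10.1, 9.77 and 8.42 CPM in Het. These 6 pools of knockout mothers were all above these 6 of heterozygous mothers, and the fitted difference was 1.93-fold (log2 0.95, SE 0.19). The WT pools, which also have heterozygous mothers, did not follow this split. They had 24.8, 14.3 and 9.45 CPM, from within the lower set to above the highest pool of the upper set. The 3 WT pools had hepatocyte marker sums in the same order, of 6682, 5201 and 3215 CPM, and gck levels in that order too. The part of liver RNA in the WT values of hkdc1 was not tested.

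Within some groups at 5 dpf, gck and hkdc1 were high in the same pool. The pool with the highest gck was also the one with the highest hkdc1 in MZKO (pool 3), in MHet (pool 1) and in WT (pool 1), and not in ZKO or Het. In WT and in MHet that pool also had the highest hepatocyte marker sum of its group, with 4414 CPM in MHet pool 1 against 4330 and 4271 CPM in the MHet pools 2 and 3. In MZKO it had the lowest, with 2685 CPM in pool 3 against 3343 and 4196 CPM in the MZKO pools 1 and 2.

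The pattern of adpgk2 was another one. In the MZKO pools it had 25.7, 18.9 and 20.9 CPM, against 2.75, 3.22 and 2.46 CPM in their MHet siblings. The ZKO pools had 2.16, 2.40 and 1.50 CPM, the Het pools 1.45, 2.39 and 3.20 CPM and the WT pools 4.12, 3.84 and 2.70 CPM. Only the larvae that lacked pomgnt2 and had a mother lacking it stood out at 5 dpf, with 7.74-fold the level of MHet (log2 2.95, SE 0.23) and 10.8-fold that of ZKO (log2 3.43, SE 0.24), in comparisons that share the MZKO pools. MHet was at 1.20-fold of Het (log2 0.26, SE 0.25). The change with the mother in knockout larvae, minus that in heterozygous larvae, was 3.17 on the log2 scale for adpgk2 (SE 0.35). It was 0.05 for gck (SE 0.71), 0.12 for hk2 (SE 0.20), -0.01 for hk1 (SE 0.12) and 0.03 for hkdc1 (SE 0.38). ZKO pools of adpgk2 lay below all WT pools, at -0.81 on the log2 scale (SE 0.25), on 30 to 48 reads in ZKO and 52 to 82 reads in WT.

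The other ADP-dependent glucokinase gene, adpgk, moved the same way in MZKO but much less. It had 22.2, 22.9 and 25.1 CPM in MZKO and 14.0, 17.3 and 16.7 CPM in MHet, a 1.46-fold difference (log2 0.54, SE 0.12, edgeR quasi-likelihood test with Benjamini-Hochberg adjusted p = 0.0045). A change was called where the adjusted p was under 0.01 and the log2 fold change was beyond 0.7 in either direction, so adpgk passed the p but not the fold threshold. In ZKO it was at 19.6, 16.1 and 15.8 CPM, against 15.2, 17.5 and 16.6 CPM in WT (log2 0.07, SE 0.12, adjusted p = 0.83 by edgeR).

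Set against all genes, 3 of the 5 kinases (gck, hk2 and hkdc1) had no overlap between the MHet and MZKO pools and the Het and ZKO pools, which was so for 13% of the 24846 genes tested at 5 dpf. In MZKO against MHet 1 of 5 did not overlap (adpgk2), as was so for 32.8% of genes, and in ZKO against WT also 1 of 5 (adpgk2), as was so for 18.9% of genes. The genes were chosen by these same levels, so nothing is read from these counts.

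**Figure D2:**
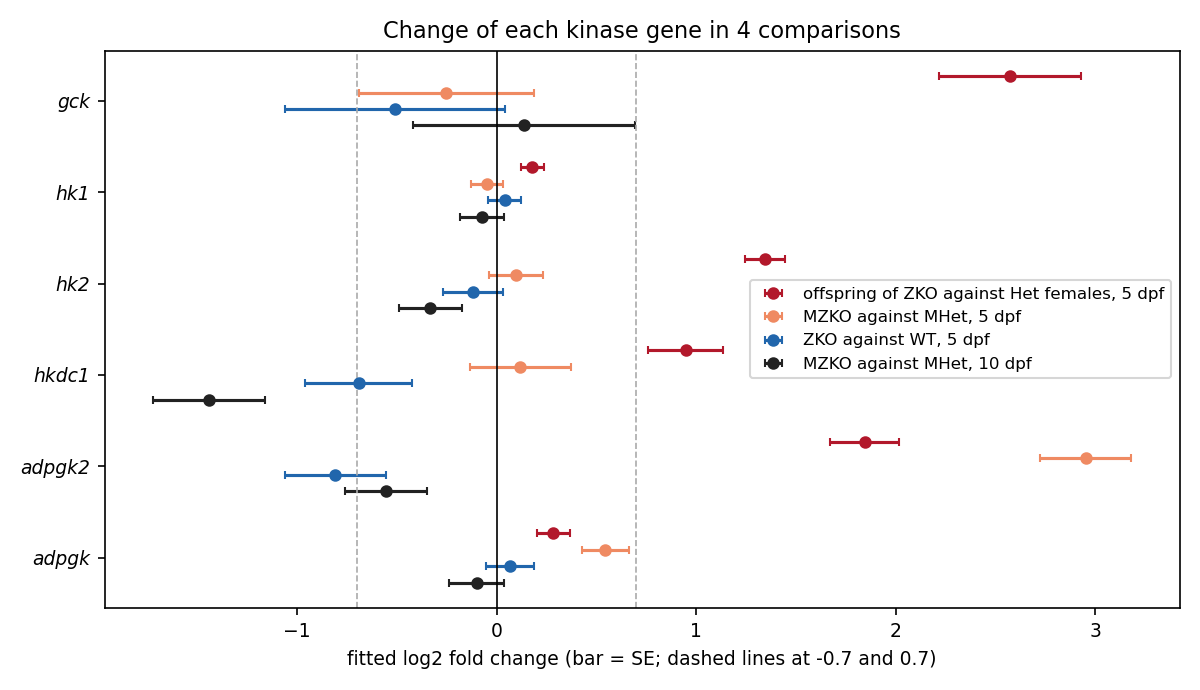
Fitted log2 fold changes of the 5 kinases and of adpgk, with standard errors as bars, in 4 comparisons marked by colour. The 5 dpf values of the 5 kinases describe the levels that chose them. At 10 dpf (black) gck lies at 0.14 and hkdc1 at -1.44.

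The genes gck and hk2, which shared the split by mother at 5 dpf, parted at 10 dpf. For gck, 4 to 16 reads were left per pool, that is 0.50, 0.35 and 0.85 CPM in MZKO and 0.22, 0.69 and 0.65 CPM in MHet. In MHet its level at 10 dpf was 0.0231 times that at 5 dpf (log2 -5.44, SE 0.58), and in MZKO 0.0302 times (log2 -5.05, SE 0.57). The level of hk2 was 19.9, 24.1 and 23.5 CPM in MZKO and 27.4, 23.0 and 34.6 CPM in MHet at 10 dpf, which was 1.18-fold (log2 0.24, SE 0.14) and 1.60-fold (log2 0.67, SE 0.14) the 5 dpf level of the same genotype. These differences between ages are also differences between batches.

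The ratio of gck reads to hk2 reads, which needs no scaling for library size, sets the 2 genes side by side in each pool. At 5 dpf it was 0.558, 1.104 and 1.306 in MZKO, 1.88, 0.85 and 1.17 in MHet, 0.66, 0.31 and 0.36 in ZKO, 0.44, 0.53 and 0.63 in Het and 1.096, 0.511 and 0.237 in WT. The means were 0.99 ± 0.39 in MZKO, 1.30 ± 0.53 in MHet, 0.44 ± 0.19 in ZKO, 0.53 ± 0.09 in Het and 0.61 ± 0.44 in WT (SD, n = 3 each), and the pools overlapped between MZKO and each of ZKO, Het and WT, and between MHet and WT. At 10 dpf it was 0.025 ± 0.011 in MZKO and 0.019 ± 0.011 in MHet (SD, n = 3 each; two-sided exact permutation test p = 0.5, where 0.1 is the smallest p that 3 against 3 pools allow). The ratio is of reads and does not compare the number of transcripts of the 2 genes.

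**Figure D3:**
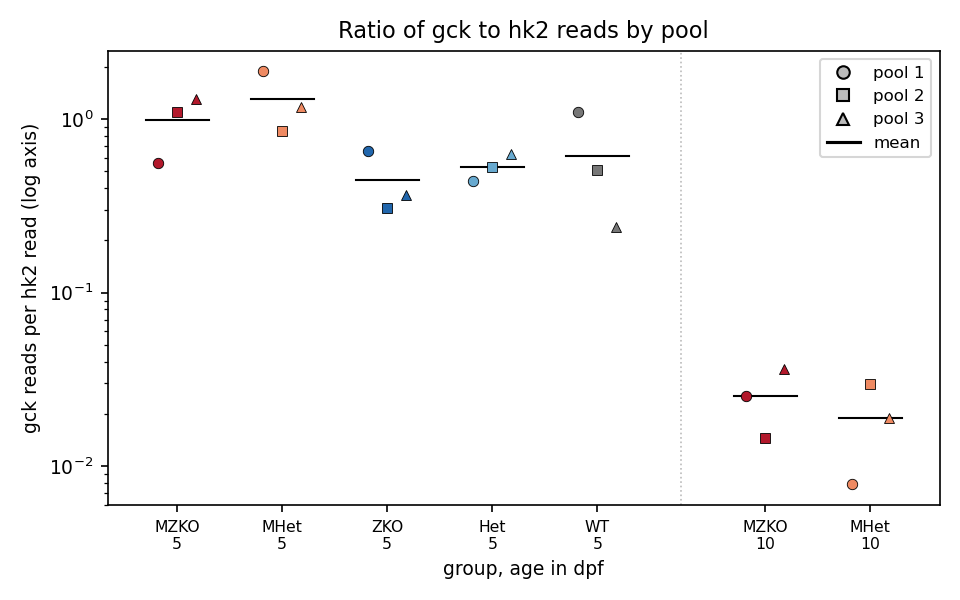
Number of gck reads per hk2 read in each pool on a log axis, by group with the age in dpf under the name. Points are pools and lines are arithmetic means of 3 pools. The 15 pools at 5 dpf lie between 0.24 and 1.88 and the 6 pools at 10 dpf between 0.0079 and 0.036.

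In the test of MZKO against MHet at 10 dpf, none of the 5 kinases was called. Over all 23597 genes tested, 0.017% were called higher and 0.0254% lower, which is 4 and 6 genes, so the threshold was reached by few genes. At an unadjusted p under 0.05 there were 4746 genes, and DESeq2 called 99 genes higher and 551 lower. Of the 5 kinases, 2 (hkdc1 and adpgk2) had an unadjusted p under 0.05, and DESeq2 called hkdc1. The pools of hkdc1 and of adpgk2 did not overlap between the groups, as was so for 26.2% of all genes tested.

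The lowest of the changes was that of hkdc1. It had 2.42, 2.33 and 3.39 CPM (40 to 64 reads) in the MZKO pools and 8.04, 4.89 and 9.28 CPM (100 to 149 reads) in the MHet pools, with no overlap. The fitted level in MZKO was 0.368 times that in MHet (log2 -1.44, SE 0.28, edgeR adjusted p = 0.036), which missed the threshold of 0.01. The call depended on the setting: the adjusted p ranged from 0.00025 to 0.167 over 12 alternatives and was under 0.01 in 5, among them DESeq2 (adjusted p = 0.00025) and the edgeR fit without MHet pool 2 (log2 -1.67, adjusted p = 0.0083). The fold change stayed between log2 -1.67 and -1.25 when single pools were left out.

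Other tissue markers moved with hkdc1 at 10 dpf. The summed level of the 14 hepatocyte markers was 904 to 1383 CPM in MZKO and 2303 to 5279 CPM in MHet, and that of 10 enterocyte markers was 299 to 622 CPM in MZKO and 806 to 1298 CPM in MHet. The sums of the exocrine pancreas list (15 genes, 1721 to 4785 CPM in MZKO and 7981 to 10307 CPM in MHet), of skeletal muscle (13 genes, 58193 to 66179 CPM in MZKO and 70507 to 77668 CPM in MHet) and of red blood cells (7 genes, 218 to 319 CPM in MZKO and 449 to 785 CPM in MHet) were lower in MZKO too, without overlap. The sum of 9 neuronal markers was higher in MZKO (3295 to 3513 CPM, against 2565 to 3241 CPM in MHet), and those of endocrine pancreas (10 genes) and photoreceptors (9 genes) overlapped. Only hbbe3, of the red blood cell list, was at 0 reads, in the MZKO pools. The part of these shifts in the level of hkdc1 was not tested.

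**Figure D4:**
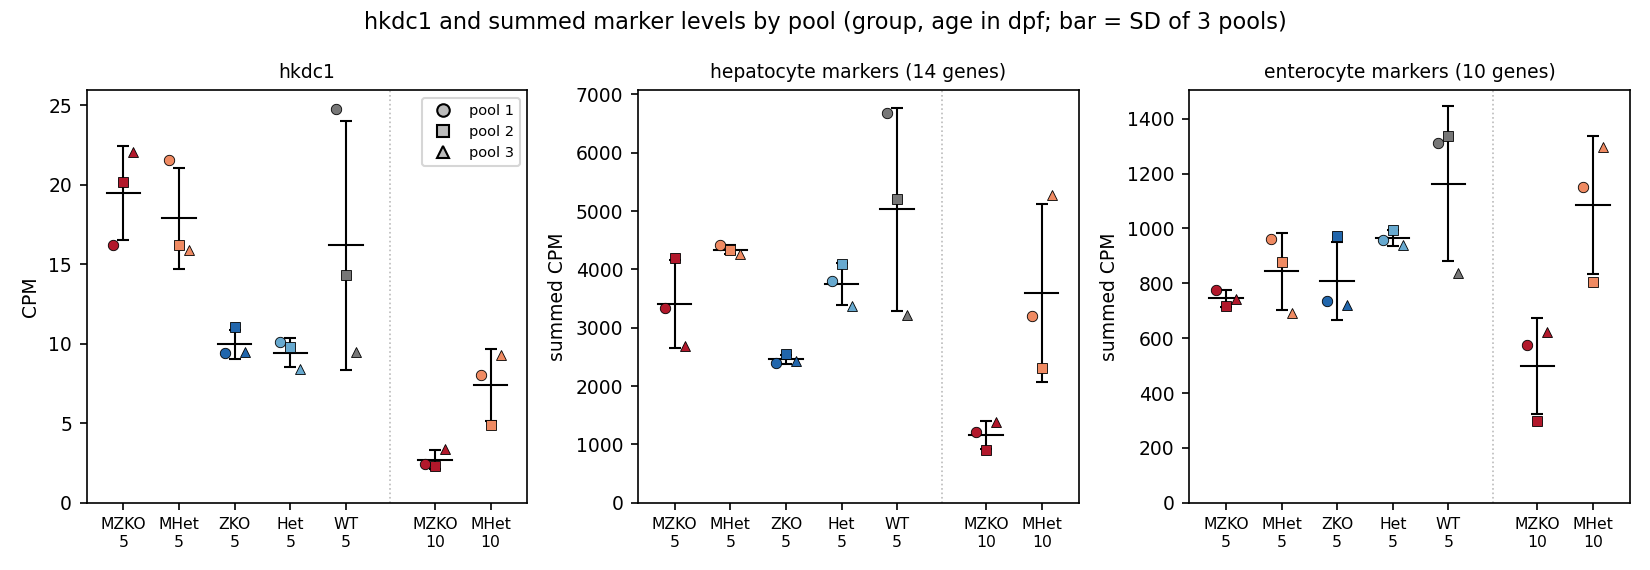
Level of hkdc1 (left), summed level of 14 hepatocyte markers (middle) and of 10 enterocyte markers (right) in each pool, in CPM on linear axes, by group with the age in dpf under the name. Lines are means and bars SDs of 3 pools. At 10 dpf the 3 MZKO pools lie below the 3 MHet pools in all 3 panels, while at 5 dpf hkdc1 and the marker sums rank the groups differently.

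For adpgk2 the direction between MZKO and MHet turned with age. At 10 dpf it had 4.61, 5.59 and 6.10 CPM in MZKO and 8.74, 6.46 and 8.76 CPM in MHet (log2 -0.55, SE 0.21, edgeR adjusted p = 0.17, not called). In MZKO this was 0.249 times the 5 dpf level (log2 -2.01, SE 0.22), and in MHet it was 2.83-fold the 5 dpf level (log2 1.50, SE 0.23). The paralogue adpgk had 18.7 to 21.0 CPM in MZKO and 18.6 to 24.2 CPM in MHet at 10 dpf (log2 -0.10, SE 0.14, adjusted p = 0.72 by edgeR).

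The other 3 kinases did not pass the test at 10 dpf. The fitted change was 0.14 for gck (SE 0.56, edgeR adjusted p = 0.92), and it became negative when MHet pool 1 (-0.24) or MZKO pool 3 (-0.26) was left out. It was -0.33 for hk2 (SE 0.16, adjusted p = 0.26 by edgeR). For hk1 it was -0.07 (SE 0.11, adjusted p = 0.76 by edgeR), with 106.9, 99.7 and 115.3 CPM in MZKO and 119.3, 118.8 and 100.3 CPM in MHet.

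Placed in order of mean level over the 7 groups, the genes separated at few steps. For gck, both 10 dpf groups were lowest, ZKO, Het and WT followed and overlapped, and MZKO and MHet at 5 dpf were highest and overlapped each other. For hk2, the break without overlap lay between WT (highest pool 9.19 CPM) and MHet at 5 dpf (lowest pool 16.7 CPM), and all other neighbours overlapped. For hk1, the break lay between MHet at 5 dpf (highest pool 88.4 CPM) and MZKO at 10 dpf (lowest pool 99.7 CPM). For hkdc1, MZKO at 10 dpf was lowest, below all pools of MHet at 10 dpf, and every later pair of neighbours overlapped. For adpgk2, ZKO, Het, MHet and WT at 5 dpf came first, and each overlapped the next in that order. The ZKO pools (highest 2.40 CPM) lay below all MHet (lowest 2.46 CPM) and all WT pools (lowest 2.70 CPM). MZKO at 10 dpf, MHet at 10 dpf and MZKO at 5 dpf followed in that order with no overlap.

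Of the genes that act around the same step, gckr and the glucose 6-phosphatase genes g6pca.1 and g6pc3 were looked at whatever their values. The regulatory protein gene gckr was low throughout, at 0.85 ± 0.23 CPM in MZKO, 1.18 ± 0.26 in MHet, 0.72 ± 0.13 in ZKO, 0.64 ± 0.32 in Het and 1.06 ± 0.48 CPM in WT at 5 dpf (SD, n = 3 each). Its fitted difference with the mother was 0.57 (SE 0.31, edgeR adjusted p = 0.17), and it had 1.09 ± 0.11 CPM in MZKO and 1.61 ± 0.79 CPM in MHet at 10 dpf (SD, n = 3 each). Its 10 dpf pools held 18 to 23 reads in MZKO and 15 to 42 reads in MHet.

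The level of g6pca.1, whose product releases glucose from glucose 6-phosphate, had large differences in group mean in 2 comparisons. In the first of them the highest ZKO pool (4.26 CPM) was near the lowest WT pool (5.87 CPM). At 5 dpf it had 2.62, 4.09 and 4.26 CPM in ZKO and 16.6, 13.8 and 5.87 CPM in WT (log2 -1.71, SE 0.33, edgeR adjusted p = 0.013, not called). At 10 dpf it had 3.47, 0.70 and 3.29 CPM in MZKO and 18.2, 9.69 and 30.1 CPM in MHet (log2 -2.93, SE 0.67, adjusted p = 0.10 by edgeR). MZKO and MHet at 5 dpf were close, at 7.77 ± 1.24 and 9.08 ± 2.30 CPM (SD, n = 3 each). The widely expressed g6pc3 stayed between 2.27 and 5.38 CPM in all 21 pools, and its adjusted p was 0.35 or more in the 4 comparisons by edgeR.

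Beyond the kinases, 136 genes of 8 lists were in the table. The lists cover glucose metabolism, insulin and glucose responsive genes, and hypoxia responsive genes. The comparison with the mother sets MHet and MZKO against Het and ZKO. It leaves out the WT pools, which also have heterozygous mothers, so a called gene need not split all pools by mother. With the mother at 5 dpf, 6 of the 134 tested were called higher and 2 lower, beside 3.16% and 2.85% of all genes. At an adjusted p under 0.05 with no fold threshold 37 were higher and 21 lower, beside 3869 and 3919 of all 24846 genes. The median log2 change of the lists was 0.06, against 0.00098 for all genes. Among 13 glucose transporters 3 were higher in the offspring of knockout mothers: slc2a12 (14.1 ± 2.86 against 6.63 ± 1.70 CPM, log2 1.09, edgeR adjusted p = 1.2e-05), the sodium-coupled slc5a2 (4.54 ± 1.12 against 2.32 ± 0.68 CPM, log2 0.98, adjusted p = 0.00059) and slc2a11l (1.42 ± 0.50 against 0.59 ± 0.11 CPM, log2 1.26, adjusted p = 0.0039), each as SD with n = 6 pools a side.

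Of 12 pentose phosphate genes 1 was called with the mother, h6pd, which encodes the hexose 6-phosphate dehydrogenase of the endoplasmic reticulum (25.0 ± 5.93 CPM in MHet and MZKO against 13.9 ± 1.06 CPM in Het and ZKO, SD, n = 6, log2 0.83, edgeR adjusted p = 8.9e-06). Its fitted change in ZKO against WT, given below, was negative. At an adjusted p under 0.05 with no fold threshold 7 of the 12 were higher and 1 lower, beside 3869 and 3919 of all 24846 genes. Of 21 insulin and glucose responsive genes 2 were called higher. They were igfbp1b, whose mammalian counterpart is repressed by insulin (22.1 ± 7.43 against 6.71 ± 2.34 CPM, SD, n = 6, log2 1.69, edgeR adjusted p = 0.00066), and mlxipl, the gene of the glucose-sensing factor ChREBP (1.50 ± 0.61 against 0.59 ± 0.31 CPM, SD, n = 6, log2 1.32). The genes called lower were fbp2 of gluconeogenesis (7.54 ± 1.41 against 12.4 ± 2.06 CPM, SD, n = 6, log2 -0.72, edgeR adjusted p = 3.5e-05) and epoa, the erythropoietin gene in the hypoxia list (0.92 ± 0.45 against 1.71 ± 0.46 CPM, SD, n = 6, log2 -0.93, edgeR adjusted p = 0.0068).

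No gene of the glycolysis list (32 tested), of glycogen metabolism (23 tested) or of the other genes of the hexokinase step (7 tested) was called with the mother. Their smallest p-values belonged to pkma, a pyruvate kinase gene (log2 0.46, SE 0.06), to the glycogen phosphorylase gene pygmb (log2 0.42, SE 0.06) and to adpgk (log2 0.28, SE 0.08, edgeR adjusted p = 0.012). The pkma and pygmb changes were among 5 glycolysis and 7 glycogen genes that passed the adjusted p but not the fold threshold. At an adjusted p under 0.05 with no fold threshold, 4 glycolysis genes were higher and 3 lower. For glycogen metabolism these were 6 and 7, and for the hexokinase step 2 and 0, beside 3869 and 3919 of all 24846 genes.

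In MZKO against MHet at 5 dpf, 0 of the 134 genes were called higher and 1 lower by edgeR, beside 0.584% and 0.302% of all genes, with list medians between -0.18 and 0.20 against -0.01 for all genes. At the same adjusted p with no fold threshold 7 passed. All genes were not counted at that threshold, so nothing is read from the 7. At an adjusted p under 0.05 with no fold threshold 10 were higher and 9 lower, beside 1320 and 1078 of all 24846 genes. At an unadjusted p under 0.05 there were 24 higher and 22 lower, beside 5888 of all genes in either direction. DESeq2 called 0 higher and 1 lower, beside 181 and 100 of the 18421 genes it adjusted. The called gene was phka1b, a regulatory subunit of phosphorylase kinase, which activates glycogen breakdown (29.6 ± 6.28 CPM in MZKO and 51.8 ± 7.05 CPM in MHet, SD, n = 3, log2 -0.81, edgeR adjusted p = 0.0023). It was lost without MHet pool 1, MZKO pool 1 or MZKO pool 2, where 0 genes of the lists were called. Over all genes these fits called 69 higher and 45 lower, 91 and 60, and 109 and 66, in that order. The smallest p-values of the other lists were those of the transporter slc2a1b (log2 0.53), pfkma of glycolysis (-0.34), fbp2 (0.37), tkta of the pentose phosphate pathway (0.47), gpam of the responsive list (0.52) and epas1b of the hypoxia list (0.26).

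In ZKO against WT at 5 dpf, 0 of the 134 genes were called higher and 2 lower by edgeR, beside 0.0282% and 0.519% of all genes. At an unadjusted p under 0.05 there were 11 higher and 34 lower, beside 4616 of all 24846 genes in either direction. DESeq2 called 0 higher and 10 lower, beside 20 and 415 of the 22889 genes it adjusted. The genes called by edgeR were pck2, the mitochondrial phosphoenolpyruvate carboxykinase gene (55.1 ± 9.62 CPM in ZKO and 124.7 ± 31.7 CPM in WT, SD, n = 3, log2 -1.17, edgeR adjusted p = 0.0077), and slc2a2, the liver type glucose transporter (15.8 ± 2.26 CPM in ZKO and 27.0 ± 7.10 CPM in WT, SD, n = 3, log2 -0.76, edgeR adjusted p = 0.0087). All 7 gluconeogenesis genes had a negative fitted change, with a median of -0.93 against 0.0044 for all genes. The hepatocyte marker sum was 2403 to 2552 CPM in ZKO and 3215 to 6682 CPM in WT, and its part in these values was not tested. The count of called list genes rested on single pools: it was 13 without WT pool 3, 1 without ZKO pool 2, and 0 without WT pool 1, WT pool 2, ZKO pool 1 or ZKO pool 3. Over all genes, 23 were called higher and 573 lower without WT pool 3, and 2 and 80 without ZKO pool 2. Without WT pool 1 they were 3 and 30, and without WT pool 2 they were 8 and 27. Without ZKO pool 1 they were 3 and 20, and without ZKO pool 3 they were 13 and 28.

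Of the lists without a call in ZKO against WT, g6pca.1 above had the smallest p of the hexokinase step. In the others it was pgam1a of glycolysis (log2 -0.45), h6pd (-0.57), gyg1b of glycogen metabolism (0.33), me1 of the responsive list (-1.05) and epas1b (-0.32), with adjusted p between 0.019 and 0.048 by edgeR.

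**Figure D5:**
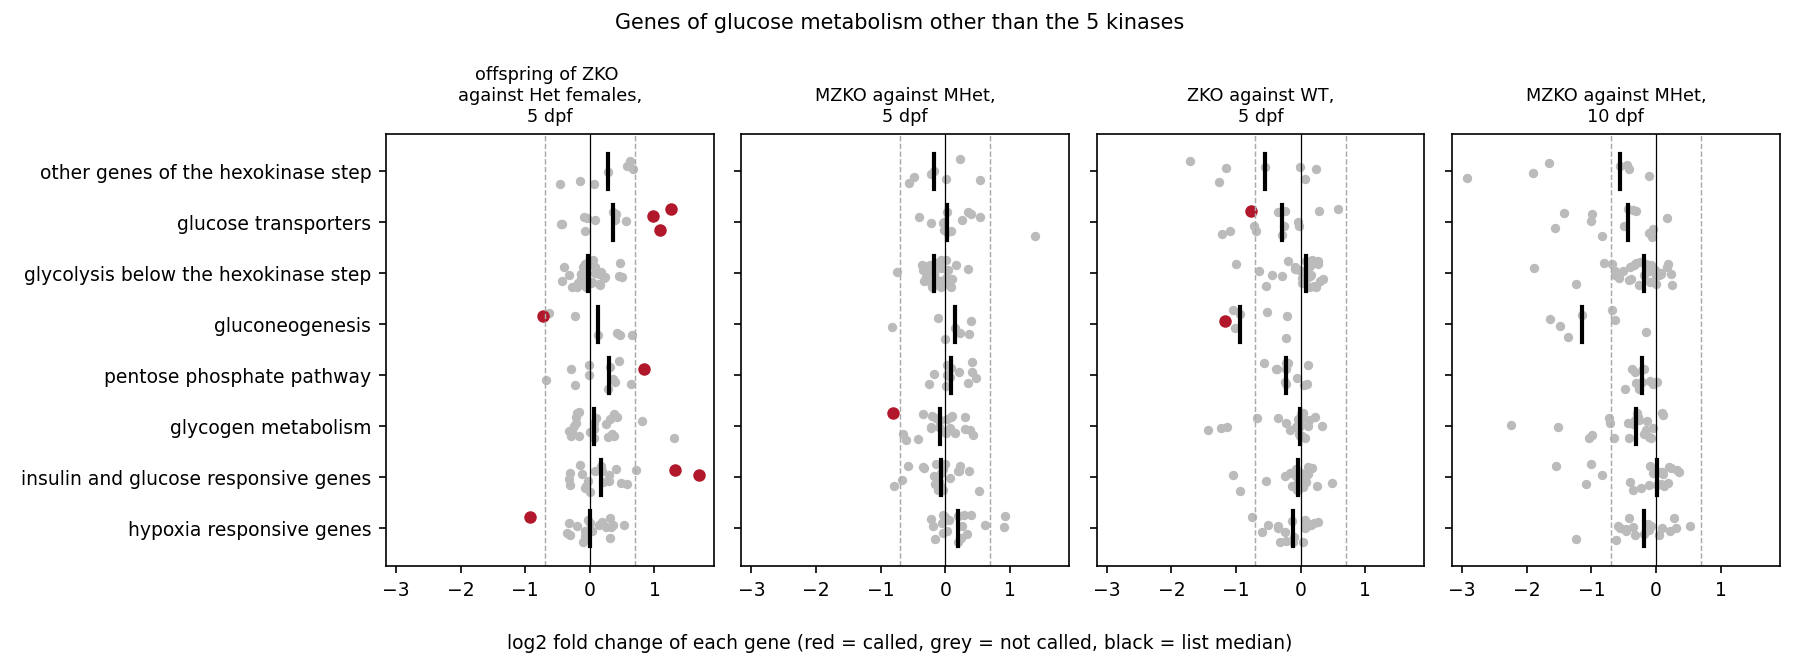
Fitted log2 fold changes of single genes (points) of 8 lists, without the 5 kinases, in 4 comparisons, with list medians as black lines and called genes in red. The lists cover glucose metabolism and genes responsive to insulin, glucose or hypoxia. The 8 genes called with the mother are 6 higher and 2 lower, and at 10 dpf no gene is called while the gluconeogenesis median lies at -1.14.

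At 10 dpf, 0 of 132 genes of the lists were called in MZKO against MHet by edgeR, beside 4 higher and 6 lower of all 23597 genes. At an adjusted p under 0.05 with no fold threshold 9 were lower and 0 higher, beside 290 lower and 104 higher of all genes. At an unadjusted p under 0.05, 2 were higher and 50 lower, beside 4746 of all genes in either direction. Negative fitted changes prevailed, in 101 of 132 genes, with a median of -0.27 against 0.01 for all genes. The lowest list median was that of gluconeogenesis, at -1.14 with 7 of 7 genes negative. Its pck1, the cytosolic phosphoenolpyruvate carboxykinase gene, had 152.0 ± 31.2 CPM in MZKO and 425.2 ± 110.1 CPM in MHet (SD, n = 3, log2 -1.48, edgeR adjusted p = 0.027). In the hexokinase step list g6pca.2 had 40.7 ± 10.5 CPM in MZKO and 128.2 ± 31.5 CPM in MHet (SD, n = 3, log2 -1.65, edgeR adjusted p = 0.031).

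The smallest p of all lists at 10 dpf belonged to pfkma, a muscle type phosphofructokinase gene, with 47.9 ± 3.84 CPM in MZKO and 83.3 ± 7.12 CPM in MHet (SD, n = 3, log2 -0.80, edgeR adjusted p = 0.015). The muscle glycogen phosphorylase gene pygma followed in its list (log2 -0.71, edgeR adjusted p = 0.031). The other lists had slc2a11b (log2 -0.83), tktb (-0.37), gpam (-0.40) and ca9 (-1.25), with adjusted p between 0.052 and 0.11 by edgeR. Over all genes at 10 dpf, DESeq2 called 99 higher and 551 lower, against 4 and 6 by edgeR. They were 103 and 442 with all 21 pools in one fit and 28 and 337 with a replicate block. The 10 dpf count of list genes depended on the tool, with 13 genes called by DESeq2, all lower, and g6pca.1, g6pca.2, slc37a4a, pck2, pfkma, aglb and slc2a2 were among those also called with all 21 pools in one fit and with a replicate block. The marker sums of liver, intestine, exocrine pancreas and muscle given above moved the same way, and their part in these changes was not tested.

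The genes whose log2 CPM ran most like each kinase over the 15 pools at 5 dpf were taken from 24846 genes. For hk2 they were ide (Pearson r = 0.985, Spearman rho = 0.918), si:ch73-389b16.1 (r = 0.984, rho = 0.932) and si:dkeyp-82b4.2 (r = 0.977, rho = 0.823). For gck they were LOC110439428 (r = 0.960, rho = 0.906), gfm1 (r = 0.957, rho = 0.850) and CABZ01114105.1 (r = 0.952, rho = 0.946). For hkdc1 they were ephx1 (r = 0.955, rho = 0.925), mthfd1b (r = 0.940, rho = 0.896) and aifm1 (r = 0.931, rho = 0.911).

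For adpgk2 the closest genes were adam17b (r = 0.947, rho = 0.729), actr2a (r = 0.945, rho = 0.836) and si:ch211-71n6.4 (r = 0.944, rho = 0.814). For hk1 they were chd6 (r = 0.925, rho = 0.936), zgc:55888 (r = 0.903, rho = 0.886) and fam69c (r = 0.902, rho = 0.907). Each value is over 15 pools in 5 groups, so it follows differences between groups as well as between pools, and it is given as a description only.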

How the data were processed

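The authors deposited one table of raw read counts per gene for 21 pools. Per the study's methods and the submitters' processing notes, reads from a directional poly(A) library had their first 10 bases trimmed (Trim Galore), were aligned to GRCz11 (danRer11) with HISAT2, sorted with SAMtools and counted with featureCounts on the Lawson transcriptome annotation. Strand and multi-mapping options are not given in the sources used here. Every count column was matched to a sample by its title.

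Counts were tested with edgeR 4.0.16 (quasi-likelihood, TMM scaling, filterByExpr, Benjamini-Hochberg over all genes tested), in one fit of the 15 pools at 5 dpf, one of the 6 pools at 10 dpf and, between ages, one of all 21. Genes were called at an adjusted p below 0.01 where the log2 fold change also lay beyond 0.7 in either direction. CPM used TMM factors over all pools, and log2 CPM a prior count of 2. The edgeR step was tested on simulated data. Alternatives were DESeq2 1.42.0, its size factors in edgeR, no count filter, at least 10 counts in every sample, a replicate block, all 21 pools in one fit, only the groups compared, an adjusted p under 0.05 without a fold threshold, and leaving out each pool.

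The members and gene lists were chosen with earlier results of these data known. Of 139 listed pathway symbols 136, and of 87 marker symbols 87, were found, older names through RefSeq synonyms. Genes were named by a rule: the 5 kinases, adpgk, gckr, g6pca.1 and g6pc3 whatever their values; per list and comparison up to 4 called genes with the smallest p, or the single gene with the smallest p where none was called; and the 3 genes most correlated with each kinase. Of the genes called by several alternatives at 10 dpf, aglb, slc37a4a and slc2a2 were named after their values were seen. RefSeq positions on GRCz12tu served only to find overlapping genes, and no coordinates or sequences are printed.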

Additional observations from a re-analysis of the deposited data

Results flagged for a closer look

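For adpgk2 all MZKO pools lay above all MHet pools at 5 dpf (18.9 to 25.7 against 2.46 to 3.22 CPM) and below all of them at 10 dpf (4.61 to 6.10 against 6.46 to 8.76 CPM). The MZKO to MHet difference at 10 dpf minus that at 5 dpf was -3.51 on the log2 scale (SE 0.32). The difference was not tested, because the 5 dpf levels chose the gene, and the ages are separate batches. Groups of 3 pools were too small for a search for outlying pools.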

How the results depend on the processing

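Of 384 values of the 5 kinases under alternatives (30 changes), 377 stayed within set limits. At 10 dpf the limit was to keep the direction and the side of the threshold. At 5 dpf and between ages it was a move smaller than the spread between pools. Leaving out 1 of 3 pools can hardly move a value beyond that spread, so the count is no measure of robustness there. Within that spread, leaving out 1 pool turned the sign of 5 dpf changes near 0 for gck, hk1 and hk2: in MZKO against MHet gck ranged from -0.59 to 0.07 and hk1 reached 0.00045, and in ZKO against WT gck ranged from -0.92 to 0.07, hk1 reached -0.03 and hk2 0.02. The 7 values beyond these limits were at 10 dpf. hkdc1 passed the threshold with DESeq2 (-1.44), all 21 pools in one fit (-1.44), no filter (-1.44) and a replicate block (-1.43), and ranged from -1.67 to -1.25 with single pools left out. gck ranged from -0.26 to 0.42 with single pools left out, and the filter of 10 counts in every sample removed it. The number of called pathway genes, 8 with the mother, was 5 with at least 10 counts in every sample, 5 to 8 with single pools left out (5 without Het pool 2 or MHet pool 1) and 58 at an adjusted p under 0.05 without a fold threshold. Over all genes, 785 were called higher and 709 lower in the main fit, and 615 and 561 with at least 10 counts in every sample. Without Het pool 2 they were 714 and 642, and without MHet pool 1 they were 718 and 610. For MZKO against MHet at 5 dpf, 1 pathway gene became 0 with all 21 pools, 3 with only the groups compared, 0 to 1 with single pools left out and 19 at the looser threshold. Over all genes, 126 were called higher and 45 lower with all 21 pools, and 191 and 94 with only the groups compared. For ZKO against WT, 2 pathway genes became 10 with DESeq2, 0 with all 21 pools and with only the groups compared, 4 with a replicate block, 0 to 13 with single pools left out and 15 at the looser threshold. Over all genes, 20 were called higher and 415 lower with DESeq2, and 2 and 21 with all 21 pools. They were 0 and 11 with only the groups compared, 7 and 152 with a replicate block and 23 and 573 without WT pool 3. At 10 dpf, 0 pathway genes became 13 with DESeq2, 10 with all 21 pools, 3 without a filter, 10 with a replicate block, 0 to 6 with single pools left out (6 without MHet pool 2, 1 without MZKO pool 2) and 9 at the looser threshold. Over all genes, 99 were called higher and 551 lower with DESeq2, and 103 and 442 with all 21 pools. They were 33 and 131 without a filter and 28 and 337 with a replicate block. Without MHet pool 2 they were 16 and 196, and without MZKO pool 2 they were 2 and 7. At the looser threshold, all genes higher and lower numbered 3869 and 3919 with the mother, and 356 and 660 in ZKO against WT. They numbered 1320 and 1078 in MZKO against MHet at 5 dpf, and 104 and 290 at 10 dpf. The cause of the differences between alternatives was not tested.

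Deviations of same-numbered pools correlated weakly, between -0.13 and 0.11 over 33 pairs of the same age. At 10 dpf, 2 of the 6 pools correlated best with their own number, out of 3 candidates each. At 5 dpf this was so for 0 of the 6 MZKO and MHet pools and for 1 of the 6 ZKO and WT pools. The labels do not say whether same-numbered pools shared a clutch or a collection, so a pairing is not known. With a replicate block, calls over all genes in MZKO against MHet at 10 dpf were 28 higher and 337 lower, against 4 and 6 without it. At 3 pools a group, and with 4 to 16 gck reads per pool at 10 dpf, small changes were not detectable.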
